A study of Mus musculus with 14 samples.

Results

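The subject is H3K4me3, the trimethylated form of lysine 4 on histone H3, in the prefrontal cortex of unstressed adult male C57BL/6J mice. The series holds 14 libraries, and the 3 labelled as controls were used, with no comparison to the 10 libraries of defeated mice or to the input library. The control animals were 10 to 12 weeks old and lived in divided cages with no aggressor, so no treatment or allele separates them. Bulk tissue was dissected, so every cell type of the prefrontal cortex contributed. Chromatin was cut with micrococcal nuclease, which digests the DNA between nucleosomes, and immunoprecipitated with an antibody to H3K4me3. The labels do not say that the 3 libraries came from separate animals, so the spread between them may be technical. All carry the same batch label.

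H3K4me3 is deposited by the SET1 and MLL methyltransferase complexes, is read by proteins such as TFIID and the ING family, and sits on the nucleosomes around the starts of active or poised genes. CpG-rich promoters recruit the depositing complexes through CXXC-domain proteins. In nerve cells and other specialised cells, the widest stretches of the mark are known to lie over genes that set cell identity.

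The table lists 153207 summits, each a position of highest signal, in 48695 called regions. Values are normalised reads per summit, and the 3 libraries held 10887911, 8805448 and 6642802 reads on these summits. Zero reads were listed for 316, 349 and 345 of the summits. The level of a gene below is the value of its strongest summit within 2 kb of either end of the gene, and values in replicates 1, 2 and 3 are given in that order. By this measure 14272 of 21887 protein-coding genes (65.2%) had a summit, and their median level was 98.5, 99.03 and 97.4, or 98.3 ± 0.82 (SD, n = 3). At that median, the value rested on 141, 114 and 85 reads. From the 5th to the 95th percentile, levels ran from 26.2 ± 1.19 to 149 ± 2.01. Near annotated starts, where the reference gives strand, 11235 of 17492 coding genes (64.2%) had a summit within 1 kb, with a median of 100.1 ± 0.558.

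The highest gene level belonged to Hjurp, the chaperone that loads the centromeric histone variant CENP-A, at 629.6, 644.6 and 599.5 (mean 624.5 ± 23.0). The next gene had a mean of 216.6, and Hjurp was far above it in every library. Other summits above 300 in the mean lay only on unplaced contigs, chromosome 9 and X. The Hjurp value was not set against the input library, and how reads with several matches were handled is not given. Mrpl46 and Mrps11, which encode proteins of the large and small mitochondrial ribosomal subunits, shared a summit at 239.7, 212.8 and 197.1. Dpcd, linked to cilia, and Poll, which encodes DNA polymerase lambda, shared a summit at 208.2, 220.7 and 194.9. Cyb5rl, a cytochrome b5 reductase relative, and Mrpl37, another mitochondrial ribosomal protein gene, shared a summit at 183.1, 201.5 and 228.1. Luc7l, a splicing factor gene, had 201.2, 181.6 and 226.9. Below Hjurp, the order of these genes changed between libraries, and their ranges overlapped.

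Neighbouring genes with a common strongest summit were frequent among the strongest. Of all 14272 coding genes with a summit, 3422 (24%) shared it with another coding gene, and among the 143 genes in the top 1% (levels of 166.2 and above) 65 did (45.5%). Genes that shared a summit had a median level of 112.5 ± 0.592, against 93.0 ± 0.80 for the other 10850 genes. A high summit near neighbouring genes counts as the strongest of each, so part of both differences is built into the measure. For such a pair the data do not say which gene the mark belongs to.

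The RefSeq start windows of the strongest and weakest genes (build GRCm38.p6, 250 bases before to 50 after the annotated start, 5′ to 3′ on the gene's strand, CG in capitals) are shown for genes whose strongest summit near the gene ends also lay within 1 kb of a start. Among these, the 3 highest distinct summits were those of Hjurp (chr1:88277530-88277829, minus strand, 22 CpG), Mrpl46 (chr7:78783040-78783339, minus strand, 13 CpG) and Dpcd (chr19:45560335-45560634, plus strand, 11 CpG). Their summits lay 200, 170 and 153 bp past the start, on the transcribed side.
Hjurp: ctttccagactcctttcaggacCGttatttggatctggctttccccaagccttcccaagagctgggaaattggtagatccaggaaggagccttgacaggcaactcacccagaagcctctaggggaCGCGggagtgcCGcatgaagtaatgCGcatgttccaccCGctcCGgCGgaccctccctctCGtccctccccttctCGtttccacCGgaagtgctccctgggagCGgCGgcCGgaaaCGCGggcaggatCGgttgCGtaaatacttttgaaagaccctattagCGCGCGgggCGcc
Mrpl46: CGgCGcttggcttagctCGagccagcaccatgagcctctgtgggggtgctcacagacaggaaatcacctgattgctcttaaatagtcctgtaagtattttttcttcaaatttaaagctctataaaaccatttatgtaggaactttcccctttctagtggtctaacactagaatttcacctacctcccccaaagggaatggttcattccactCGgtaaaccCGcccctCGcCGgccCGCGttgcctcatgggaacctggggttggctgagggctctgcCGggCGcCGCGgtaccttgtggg
Dpcd: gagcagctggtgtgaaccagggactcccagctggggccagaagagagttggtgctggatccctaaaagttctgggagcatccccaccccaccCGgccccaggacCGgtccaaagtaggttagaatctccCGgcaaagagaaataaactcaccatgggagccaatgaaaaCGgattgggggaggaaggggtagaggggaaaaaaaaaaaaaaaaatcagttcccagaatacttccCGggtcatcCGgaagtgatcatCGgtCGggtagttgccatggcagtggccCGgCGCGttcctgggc
The windows of Hjurp and Dpcd each hold 1 match to the ETS core CGGAAG, and that of Mrpl46 holds 1 match to TATAAA, counting both strands.

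The 3 lowest by the same choice, with reads in every library and clone-named gene models left out, were Zfp955a (chr17:33255096-33255395, minus strand, 8 CpG), Ifnz (chr4:88781881-88782180, plus strand, 6 CpG) and Tgtp2 (chr11:49064163-49064462, minus strand, 2 CpG), with CG again in capitals.
Zfp955a: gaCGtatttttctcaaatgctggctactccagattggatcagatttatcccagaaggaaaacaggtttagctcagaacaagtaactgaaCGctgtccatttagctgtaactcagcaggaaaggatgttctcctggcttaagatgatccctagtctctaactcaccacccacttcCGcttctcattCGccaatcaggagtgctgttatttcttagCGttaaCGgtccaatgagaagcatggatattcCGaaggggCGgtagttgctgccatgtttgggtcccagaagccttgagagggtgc
Ifnz: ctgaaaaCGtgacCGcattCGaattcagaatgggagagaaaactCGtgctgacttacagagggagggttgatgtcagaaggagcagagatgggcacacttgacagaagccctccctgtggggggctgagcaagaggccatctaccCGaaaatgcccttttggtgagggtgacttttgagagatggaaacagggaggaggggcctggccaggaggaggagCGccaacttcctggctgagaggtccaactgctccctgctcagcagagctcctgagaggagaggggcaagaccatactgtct
Tgtp2: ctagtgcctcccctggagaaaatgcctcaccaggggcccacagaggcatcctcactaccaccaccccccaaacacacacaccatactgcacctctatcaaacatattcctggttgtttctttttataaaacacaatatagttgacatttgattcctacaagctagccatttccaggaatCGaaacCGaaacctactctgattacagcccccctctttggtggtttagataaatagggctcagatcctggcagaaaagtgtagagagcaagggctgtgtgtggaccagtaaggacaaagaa
The 2 matches to TATAAA in Tgtp2 overlap, being the same stretch read on both strands, and Tgtp2 has none to the ETS core. Zfp955a has 1 match to the ETS core, as Hjurp and Dpcd do. With 3 windows a side, no difference in sequence between strong and weak genes was tested.

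At the low end, among coding genes with at least 1 read in every library and leaving out clone-named gene models (Gm, Rik, LOC and the like), Zfp955a, a zinc finger gene, had exactly 1 read in each library (0.905 ± 0.226 after normalisation). Ifnz, an interferon zeta gene, had 1, 2 and 3 reads. Tgtp2, an interferon-induced GTPase, had 22, 5 and 3 reads, for values of 15.4, 4.34 and 3.44. These levels are at the limit of counting and do not order the 3 genes. All 3 genes belong to families of closely similar copies, and how reads that fit several copies were handled is not given in the sources used here, so the values are uncertain. Bex1, a brain-expressed X-linked gene, had 4.89, 10.4 and 12.6. Magel2, an imprinted gene of the Prader-Willi region, had 8.38, 13.0 and 8.02. Adam32, a metalloprotease-family gene, had 5.59, 16.5 and 8.02. A further 12 genes with a summit were listed at 0 in every library.

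Homez, a homeobox gene, and Pcdha5, a clustered protocadherin, were also among the 8 lowest of these, but only by the distance rule. Homez had 6.38 near the ends of its gene model and 127.4 within 1 kb of an annotated start. For Pcdha5 the strongest summit anywhere in the gene reached 88.8, against 7.09 near its ends. In all, 135 coding genes had a level near their ends under 50% of that at an annotated start, and 472 with no summit near an end had one at a start. The transcription factor gene Mef2c, for example, had none within 2 kb of either end and 97.3 at a start.

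Some whole gene families were nearly without summits, against 65.2% of all coding genes with one. Olfactory receptors had a summit near 4 of 1110 genes, vomeronasal receptors near 3 of 355 and defensins near 1 of 71. None was found within 2 kb of the 56 keratin-associated protein genes, the 35 bitter taste receptors, the 25 prolactin-family genes or the 22 major urinary protein genes in the table used here. At the other end were Mediator subunits, the bridge between transcription factors and RNA polymerase II, with 29 of 30 genes marked and a median of 114 ± 3.12. Rab GTPases, which steer vesicle traffic, had 64 of 69 (104 ± 1.37), and Zfp zinc finger genes 348 of 400 (112 ± 3.21). Other families lay between, such as solute carriers with 265 of 375 (93.5 ± 1.77) and potassium channels with 73 of 94 (61.2 ± 6.73). Cytochrome P450 genes had 27 of 99 (72.8 ± 5.34) and serpins 10 of 63 (41.3 ± 6.72). Among noncoding classes, 28.8% of lncRNA genes had a summit (67.2 ± 1.27), as did 21.2% of miRNA genes (76.9 ± 0.41) and 5.13% of pseudogenes (33.4 ± 0.15). The share was 61.0% for tRNA genes (74.0 ± 7.38), 12.9% for snoRNA genes (94.4 ± 5.01) and 9.36% for snRNA genes (54.6 ± 2.09).

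Width was a different property from height. A region's width is the distance between its outer summits, and 21251 regions (43.6%) had 1 summit. The widest region covered Pcdh7, a protocadherin, with 39 summits over 7936 bp, yet its strongest summit averaged 86.6 ± 18.9, below the median gene. Next came Flrt2, an adhesion molecule of axon guidance (6844 bp, 37 summits), and Smad7, the inhibitor of TGF-beta signalling (6791 bp, 37 summits). The homeobox gene Meis2 followed with 6585 bp and the noncoding RNA gene Malat1 with 6168 bp. Spry2, an antagonist of growth factor receptors, had 6000 bp, Nr4a3, an activity-induced nuclear receptor, 5859 bp, and Glul, the glutamine synthetase of astrocytes, 5262 bp. Summed over the region, Pcdh7 had 1678, 2374 and 2033, so replicate 1 was the lowest. For Smad7 the sums of 2455, 2380 and 2370 lay close together.

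Among the largest sums, a region on an unplaced contig led with 4077 ± 557, followed by the Hjurp region (2524 ± 151), Smad7 (2402 ± 46.5) and Pcdh7 (2028 ± 348). Ptprg, a receptor phosphatase gene, came next at 1953 ± 65.8. Anp32a, a histone-binding protein gene, had 1928 ± 50.03, and the chromatin remodelling subunit gene Smarca2 had 1905 ± 117. Flrt2 had 1904 ± 132.

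The widest 5% of regions, 2435 in number and at least 1594 bp wide, held 23.3 ± 0.513% of all normalised reads on summits. Their strongest summit had a median of 92.9, 98.2 and 96.3, against 32.8, 32.1 and 33.2 in the other regions, a difference of 1.52 ± 0.055 on the log2(value + 1) scale. That contrast came from the narrow end. Regions of 800 to 1200 bp already reached 94.4 ± 1.03, those of 2500 to 4000 bp had 97.2 ± 2.02, and the 53 regions of 4000 bp or more had 107.9 ± 3.62. The median value per summit likewise stayed between 57.8 and 60.3 from 800 bp upward. Regions of 1 summit had 20.9 ± 0.90. A wider region has more summits from which the strongest is taken, so part of the rise is built into the measure. By the median of each gene's mean over the 3 libraries, coding genes with their strongest summit in the widest 5% had 98.8. Other coding genes had 99.9 by this measure, which differs from the mean of the library medians (98.3 for all). Of the 714 strongest coding genes, 44 (6.16%) lay in the widest regions, against 14.3% of all coding genes with a summit.

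**Figure D1:**
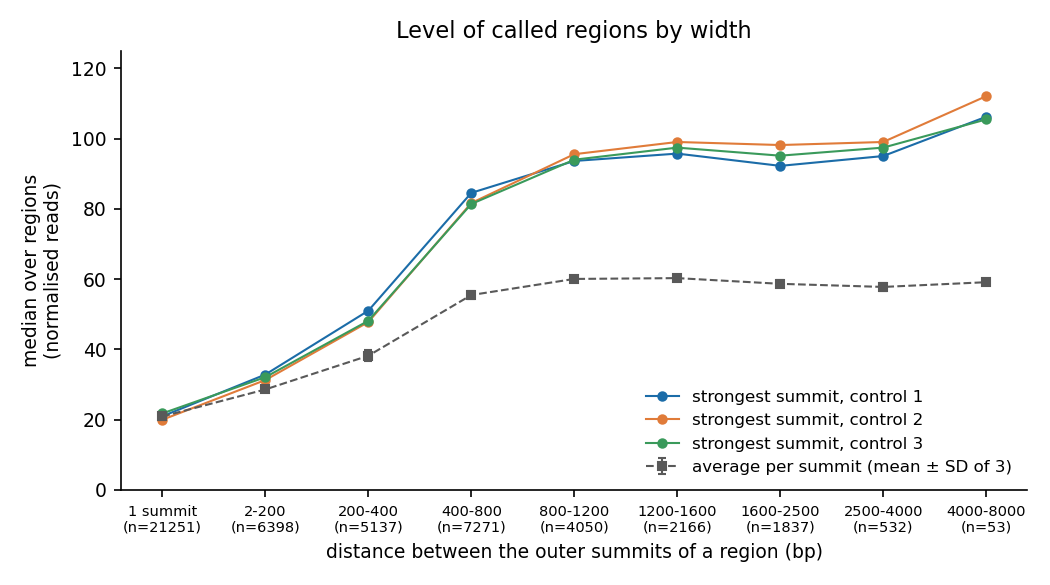
Median level of called regions by the distance between their outer summits (bp), with the number of regions per class. Coloured points are the strongest summit in each control library, and grey squares the average per summit (mean ± SD of 3 libraries). The strongest summit rises to about 94.4 at 800 to 1200 bp and changes little from there to 4000 bp.

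The 3 genes for the brain microRNA miR-9, Mir9-1, Mir9-2 and Mir9-3, all lay in regions of the widest 5%. Their levels were 58.1 ± 7.85, 39.6 ± 13.2 and 81.3 ± 31.6. The region at Mir9-3 spanned 5048 bp with 26 summits, the 10th widest of all, and its strongest summit had 55.2, 116.4 and 72.2. Mature miR-9, a regulator of neural progenitors, is the same from each gene, shown here from RefSeq with its seed (bases 2 to 8) in capitals beside that of miR-137, another brain microRNA whose gene lay in a wide region.
miR-9-5p: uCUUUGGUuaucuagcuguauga
miR-137-3p: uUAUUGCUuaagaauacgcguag
Of 9 brain microRNA genes chosen after their values were seen, 7 had a summit within 2 kb, from 26.2 to 81.3. Of 9 chosen for muscle, blood, endocrine or epithelial tissues, 2 did, Mir375 (22.6 ± 12.9) and Mir203 (93.7 ± 2.45). Among all 1228 miRNA genes, 260 (21.2%) had a summit, and no difference between the chosen sets was tested.

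Summits lay mostly past the start, in steps. Around 13306 coding starts with no other annotated start within 4 kb, 7279 had a summit within 2 kb, and 74.97 ± 0.927% of the value lay on the transcribed side. Level was highest 100 to 150 bp after the start, at 90.1, 88.8 and 88.9, where summits were also most frequent (3240). A second rise stood at 300 to 350 bp (79.0 ± 2.003). Just before the start, from -100 to -50 bp, level fell to 48.0 ± 0.51 and summits to 787, and 200 to 250 bp upstream it was 54.1 ± 2.57. Within regions, neighbouring summits were 179 bp apart in the median (154 to 205 bp in the middle 50%). Of 1268 coding genes with starts more than 2 kb apart, 405 were marked at every start, 675 at some and 188 at none.

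**Figure D2:**
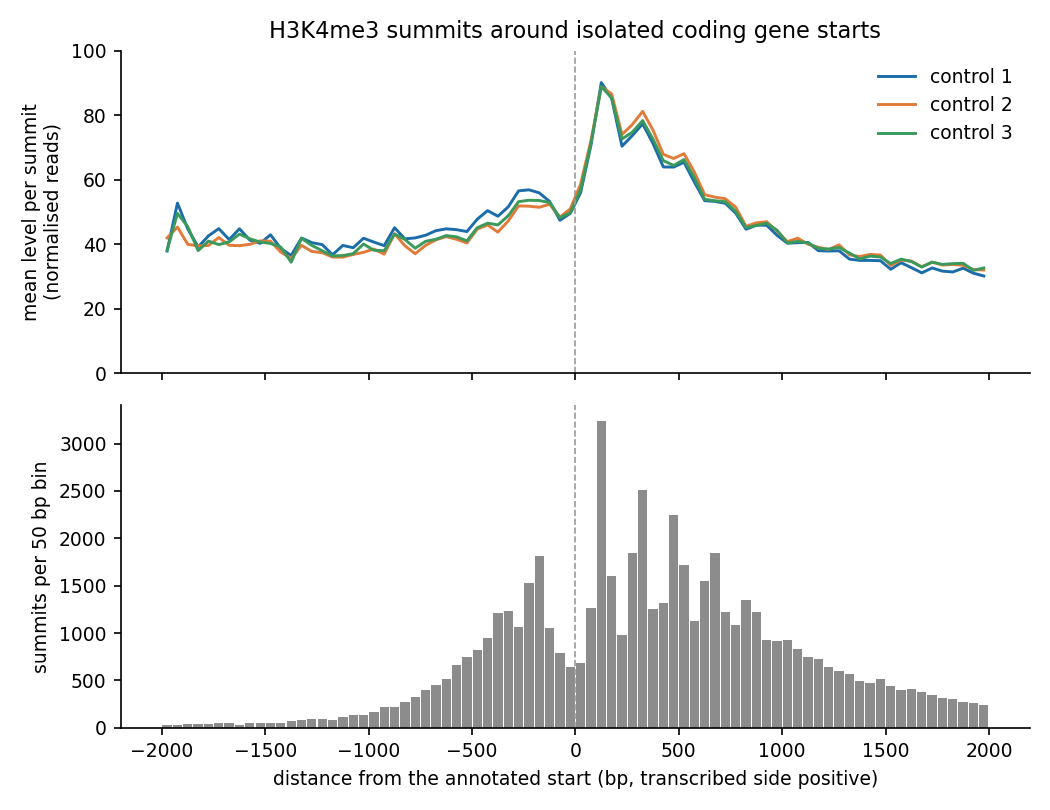
Mean level per summit in each control library (top) and number of summits (bottom) in 50 bp bins around 13306 isolated coding starts, with the transcribed side positive. The highest bin is at 100 to 150 bp in all 3 libraries, and the count shows further peaks downstream.

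CpG content separated marked from unmarked starts more sharply than it separated levels. Among 21238 start windows of 300 bp, 5.52% of those with 0 to 2 CpG had a summit within 1 kb (95% Wilson interval 4.84 to 6.29%). The share was 51.1% at 6 to 9 CpG, 97.9% at 20 to 24 and 99.5% at 30 to 39. Where marked, the level rose from 34.4 ± 2.26 at 0 to 2 CpG to 105.2 ± 0.956 at 20 to 24, and at 40 or more it was 101.2 ± 2.91. Windows above the median of 13 CpG had 103.6 ± 0.568 and the others 67.4 ± 1.11, a difference of 0.61 ± 0.015 on the log2(value + 1) scale. The rank correlation of CpG count with level over the 13583 marked windows was only 0.25, 0.31 and 0.30, a description across windows of the same libraries. Within 20 to 24 CpG, levels still ran from 58.1 to 137.2 between the 10th and 90th percentiles.

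**Figure D3:**
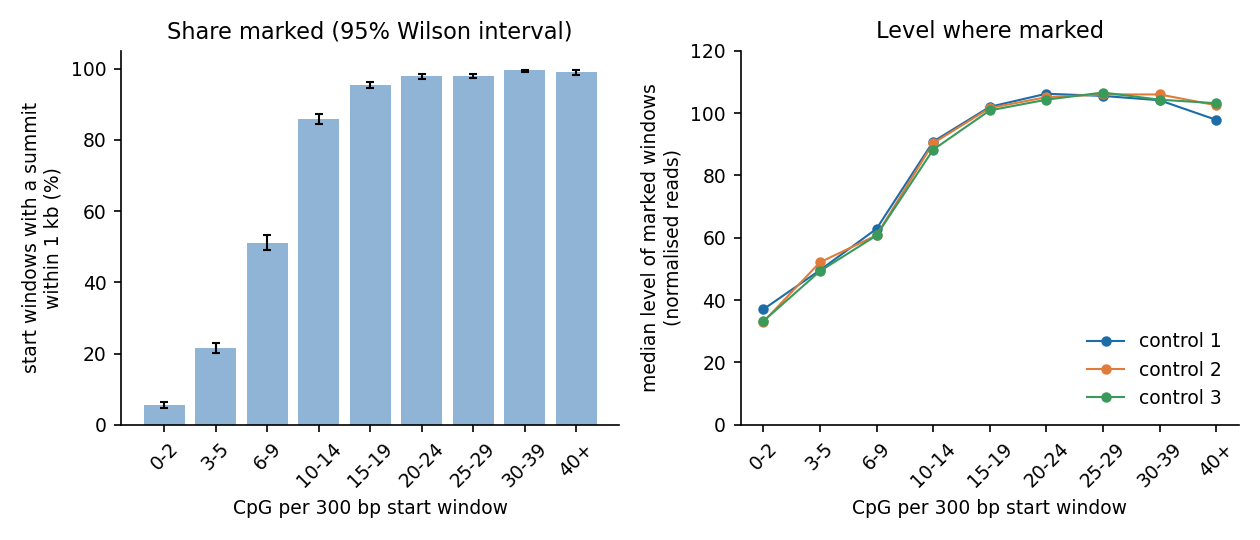
Share of start windows with a summit within 1 kb (left, 95% Wilson interval) and median level of the marked windows in each control library (right), by CpG per 300 bp window. The share climbs from 5.52% to 99.5%, and the level stays near 100 from 15 CpG upward.

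Letter matches in the same windows, on either strand, differed with level. The ETS core CGGAAG, which itself contains a CpG, was in 21.1% of all windows, in 5.73% of those with no summit, in 34.6% of those at a level of 90 to 120 and in 51.3% of the 423 at 150 or more. Among windows with 15 to 29 CpG only, the share still went from 19.9% under a level of 60 to 50.6% at 150 or more. GGGCGG, the GC box bound by SP factors and also holding a CpG, was in 46.2% of all windows. Within the 15 to 29 CpG class it was in 75.1% under 60 and in 69.1% at 150 or more. TATAAA was in 12.6% of all windows, in 23.5% of unmarked ones and in 4.96% at 150 or more. A match is not a bound site, and such windows also share base composition.

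Marker genes of the brain's cell types had a lower strongest summit than the median gene, by an amount that depended on the measure. With all summits near a gene added up, pan-neuronal genes had a median of 444 ± 112 and excitatory neuron genes 432 ± 100.4, against 458 for all coding genes. The sums were 366 ± 55.6 for astrocyte, 180 ± 17.7 for inhibitory neuron and 62.0 ± 13.3 for microglial genes. The levels that follow are of the strongest summit. Textbook lists were used for each type, and in bulk tissue fewer cells of a type and less mark per cell cannot be told apart. All 20 pan-neuronal genes had a summit, against 65.2% of all coding genes. Only 1 of the 20 was above the overall median of gene means over libraries, which 50% of coding genes exceed by definition. That gene was Elavl4, an RNA-binding protein of neurons, at 83.8, 106.0 and 115.8. Map2, the dendritic microtubule protein, had 75.5, 47.8 and 60.7, near the list's median of 59.9 ± 10.2. Rbfox3, which encodes the nuclear antigen NeuN, was lowest near its gene ends at 22.5 ± 13.7 and reached 48.6 within the gene. Library medians for these genes were spread wide, at 49.6, 69.9 and 60.2.

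Excitatory neuron genes had a summit in 18 of 20 (55.2 ± 6.52), from Fezf2, a deep-layer factor, at 20.3, 43.4 and 32.1 to Cux1, an upper-layer factor, at 118.8, 132.0 and 126.1. Bcl11b, a factor of subcortical projection neurons, had 23.8, 63.4 and 69.9, so replicate 1 lay far under the others. Inhibitory neuron genes had a summit in 16 of 20 (40.4 ± 2.19), from Gad1, the GABA-synthesising enzyme, at 17.5 ± 6.15 to Sox6 at 94.4 ± 21.3. No summit lay within 2 kb of Slc32a1, Sst or Vip in the table used here. None of these 16 exceeded the overall median.

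Astrocyte genes had a summit in 15 of 18 (59.1 ± 6.41). The highest, Aldoc at 118.3 ± 3.64, shared a summit 4377 bp from its start with Pigs, and within 1 kb of the Aldoc start the level was 27.0. Slc1a2, the main glutamate transporter of astrocytes, had 48.2, 62.5 and 64.2, and S100b 24.8 ± 6.37. Oligodendrocyte genes had a summit in 13 of 18 (44.9 ± 4.07), led by Cnp, a myelin enzyme, at 94.6 ± 13.0, and none lay near Mog or Mobp. Precursor genes had a summit in 8 of 12 (49.7 ± 15.4). Pdgfra, the receptor that marks these precursors, had 16.3 ± 1.72 near its ends and 66.8 within the gene. Microglial genes were marked in 8 of 18 (38.5 ± 5.08), and at starts in 3 of 12, where the median was 20.6. It was also 20.6 within 1 kb or 5 kb of gene ends. Trem2, a microglial receptor, had 19.6, 19.1 and 19.5, and no summit was near Cx3cr1, Csf1r or Aif1. Endothelial and mural genes had 13 of 18 (41.8 ± 2.51), from Rgs5, a pericyte gene, at 21.5 ± 6.60 to Slc2a1, the glucose transporter of the blood-brain barrier, at 127.1 ± 13.4.

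**Figure D4:**
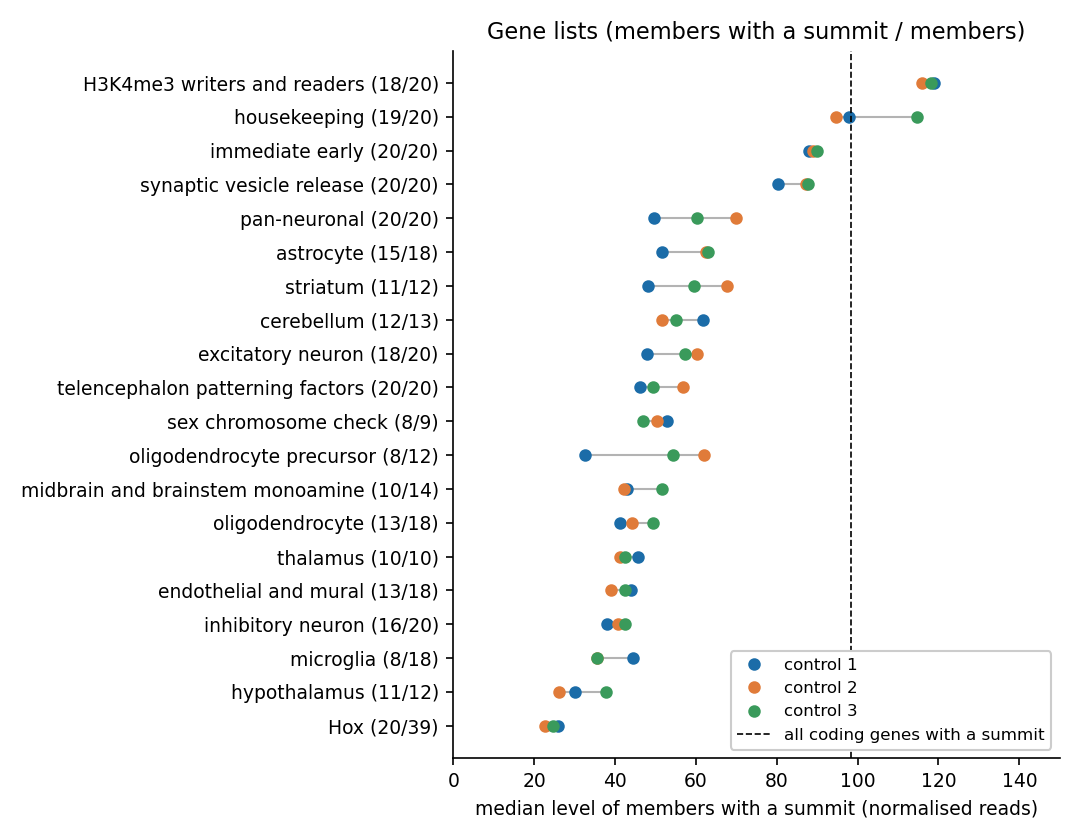
Median level of each list with at least 8 marked members, per control library, with members having a summit over members listed. The dashed line is the median of all coding genes with a summit (98.3). Most lists of cell types and brain regions lie to its left in every library, and the list headed writers and readers of H3K4me3, which also holds demethylases, to its right.

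The lists that follow had higher medians than the cell type lists, though not all lay above the median of all coding genes. Genes that write, read or erase H3K4me3 had a median of 118.8, 116.0 and 118.1, with 13 of 18 above the overall median. Ing2, a reader, was the highest of these at 183.1, 191.1 and 184.5, and Kdm5c, an X-linked demethylase, the lowest at 46.3 ± 4.32. Housekeeping genes had 97.8, 94.7 and 114.6 (102.4 ± 10.7), above the median of all coding genes only in replicate 3. A summit was near 19 of 20 of them, with the X-linked Pgk1, a glycolytic enzyme gene, lowest at 42.0 ± 10.3. Synaptic vesicle genes had 85.1 ± 4.13, under the median of all coding genes, and the X-linked Syn1, a synapsin gene, was lowest at 29.1 ± 8.70. Immediate early genes, which respond to neuronal activity, had 88.0, 89.0 and 89.98, also under that median. Fosl2 led them at 129.3, 131.2 and 130.7, and Npas4 was lowest near its ends at 23.3 ± 5.05, with 45.7 at its start.

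Immediate early genes were often in wide regions. Their strongest summit lay in the widest 5% of regions for 9 of 20, against 14.3% of all coding genes with a summit. The counts were 7 of 20 pan-neuronal, 7 of 18 excitatory neuron, 6 of 15 astrocyte genes and 1 of 16 inhibitory neuron genes. Other lists were above 14.3% too, with 6 of 18 genes that write, read or erase H3K4me3, 3 of 8 precursor and 5 of 20 telencephalon genes. So were 4 of 19 housekeeping, 4 of 20 synaptic vesicle, 3 of 11 striatal and 3 of 12 cerebellar genes, while oligodendrocyte genes had 1 of 13. None of the 8 microglial, 13 vascular or 20 Hox genes with a summit was in a wide region. When all summits within 2 kb were added up, immediate early genes had a median of 893, against 458 for all coding genes.

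Hox genes, which pattern other body regions, were weak. Of 39 Hox genes, 20 had a summit, against 65.2% of all coding genes, at a median of 25.9, 22.6 and 24.6. Of the 22 with a listed start, 7 had a summit within 1 kb of it, against 64.2% of all coding genes. The highest, Hoxa9 at 85.2 ± 5.005, rested on a summit 5730 bp from its start. All 20 telencephalon patterning factors had a summit (50.8 ± 5.54), from Gsx2, a ventral factor, at 17.2 ± 3.08 to Zbtb18 at 114.9 ± 13.0. Among regional lists, hypothalamic genes had 31.3 ± 5.98, thalamic genes 43.1 ± 2.34, monoamine genes of midbrain and brainstem 45.6 ± 5.23, cerebellar genes 56.2 ± 5.17 and striatal genes 58.5 ± 9.82. Within 1 kb of a start their medians, in the same order, were 23.9, 63.2, 43.5, 36.0 and 82.1. Excitatory neuron genes had 58.0 there, so genes of other regions were not all weaker. Some of the high values of single genes near their ends rested on summits shared with a neighbour. Cbln3, a cerebellar granule cell gene at 162.8 ± 38.8, shared its summit with Khnyn, and Agrp, a hypothalamic peptide gene at 130.3 ± 19.6, with Atp6v0d1.

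Genes of unrelated tissues had few summits at their starts. Within 2 kb of a gene end, 3 of 16 liver, 4 of 16 muscle, 4 of 16 germ cell, 5 of 14 epidermal, 2 of 16 lymphocyte, 2 of 12 erythroid and 2 of 12 pancreatic genes had one. Within 1 kb of a listed start the counts were 1 of 15, 0 of 13, 1 of 14, 1 of 8, 0 of 10, 1 of 9 and 2 of 11, against 64.2% of all coding genes. Where a summit was near, the medians were not low for every list. They were 74.7 ± 13.8 for the liver, 55.1 ± 6.31 for the muscle, 91.9 ± 2.57 for the germ cell and 64.0 ± 4.01 for the epidermal list. The lists with 2 such genes had 79.3 ± 8.82 (lymphocyte), 105.9 ± 8.96 (erythroid) and 25.2 ± 3.50 (pancreas). Foxa3 shared its summit with Sympk, Mylpf with Tbc1d10b, Tnp2 with Socs1 and Gdf9 with Uqcrq. No summit lay near Alb, Myh7, Prm1 or Cd3e. Of 12 ependymal and choroid plexus genes, 4 had a summit, and none lay near Ttr, the transthyretin gene.

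Coding genes of the X chromosome had a little under 50% of the autosomal level. The median of its 459 marked coding genes was 48.2, 47.8 and 48.1, against 99.9, 100.8 and 98.6 for 13809 autosomal genes, so the groups of library medians did not overlap. The ratio was 0.482 ± 0.00715 and the log2(value + 1) difference -1.04 ± 0.021. In the mean over libraries, none of the 459 X genes exceeded the autosomal median. Ocrl, a lipid phosphatase gene, was the highest of them at 102.0, 74.7 and 97.4, followed by Nono, a nuclear RNA-binding protein gene, at 83.1 ± 14.1. Within windows of 10 to 19 CpG the ratio was 0.472 ± 0.0102, within 20 or more 0.476 ± 0.0154, and within 0 to 9 it was 0.698 ± 0.0319. By the strongest summit of regions of 2 or more summits, at genes or not, the ratio was 0.596 ± 0.0109. A summit lay near 47.5% of X-linked coding genes. All animals were male, so fewer X copies per cell and less mark per copy cannot be told apart.

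On the Y chromosome 4 of 256 coding genes had a summit. Uty had 51.5 ± 11.1, Eif2s3y 48.0 ± 8.44, Ddx3y 41.9 ± 8.91 and Kdm5d 54.5, 22.6 and 29.8. Their X-linked relatives Eif2s3x (68.3 ± 5.24), Ddx3x (61.3 ± 9.34) Kdm6a (56.0, the relative of Uty) and Kdm5c (46.3) ran from 46.3 to 68.3, and no test was made between the chromosomes' pairs. No summit lay within 2 kb of Xist, the RNA gene that silences an X chromosome in females.

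**Figure D5:**
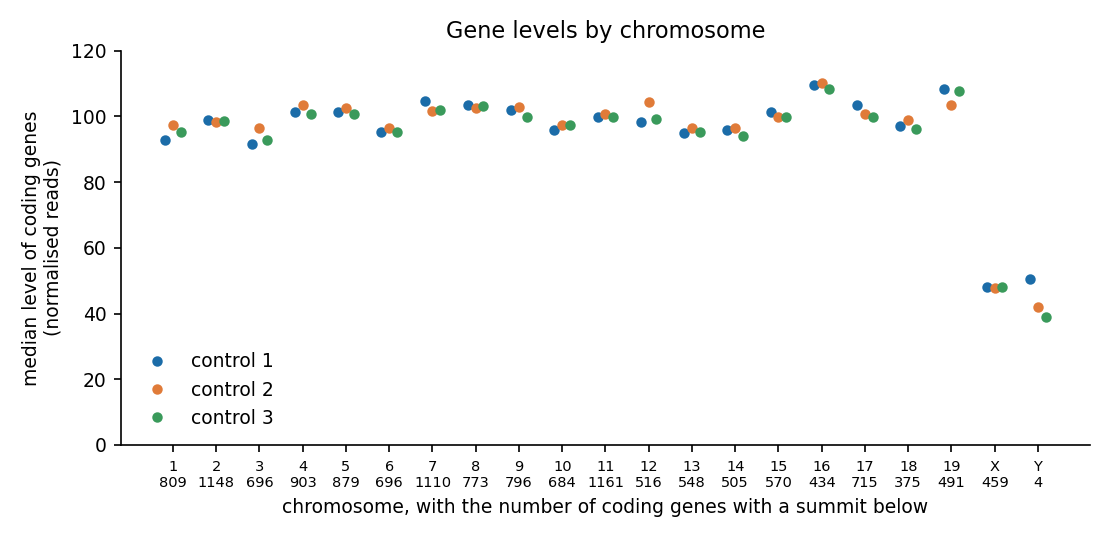
Median level of coding genes with a summit on each chromosome, per control library, with the number of genes below each name. Autosomes lie between about 91.5 and 110.3, and X and Y near 50 or under.

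Most summits were at genes, but the highest single values were not. Within 2 kb of a gene boundary lay 73.0% of summits and 80.2 ± 0.167% of the value, deeper inside genes 21.3% of summits (median level 29.9 ± 0.53), and outside genes 5.52% (26.3 ± 1.03). Of 21 summits above 300 in the mean, 11 were on unplaced contigs, 4 on chromosome 9, 3 on X and 3 at Hjurp on chromosome 1. The highest beyond 2 kb of a boundary was at position 3006795 of chromosome 9 (mm10), with 1161, 2262 and 2212. Next came position 143483058 of X, with 1250, 1258 and 2242, and position 3002121 of chromosome 9, with 850, 1449 and 1347. Each varied far more between libraries than strong gene summits did, and they were not set against the input library here.

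The 3 libraries agreed better on sums than on single summits. Across coding genes, the rank correlation of levels was 0.84 for replicates 1 and 2, 0.85 for 1 and 3 and 0.84 for 2 and 3, and with all summits near a gene added up it was 0.95, 0.97 and 0.98. For single summits it was 0.82, 0.86 and 0.89, and for region sums 0.92, 0.94 and 0.95. These describe genes and summits of the same 3 libraries, which are not independent replicates. A gene's levels in replicates 1 and 2 were within 1.5-fold for 88.2% of genes, and in replicates 2 and 3 for 92.8%.

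By their strongest summit, the strongest genes were less repeatable by name than the weakest. Of the 714 genes in the top 5% of each library, 193 (27.0%) were in the top 5% of all 3, while at the bottom 325 (45.5%) were. With the summits near each gene added up, 71.8% of the top 5% were shared by all 3. Genes picked as the top 5% in replicate 1 had a median of 162.8 there, 145.1 in replicate 2 and 144.4 in replicate 3. In the libraries that had not picked them, these genes thus had a median above the 75th percentile of all genes (119.99 ± 0.844).

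Variation beyond counting was 18.4% (coefficient of variation, edgeR's common dispersion over summits). By level class it was estimated without edgeR, as the observed coefficient of variation with its counting part taken out. By this estimate it was larger where the mark was weak, at 45.8% for the 1322 summits under a level of 10 and 28.5% at 10 to 20. At 100 to 120 it was 9.09%, where counting alone gives 9.13%. Helb, a DNA helicase gene, was the steadiest gene above the median at 107.6, 107.7 and 107.7, and Rabep1, an endosomal protein gene, had 122.3, 122.5 and 122.6. Srd5a1, steroid 5-alpha reductase, and its neighbour Nsun2 had 135.6, 136.4 and 136.4. Their spread was under the counting error of summits at such levels, and they were picked for it from all genes above the median. The DNA repair gene Ercc8 and Fen1, a flap endonuclease gene, had 134.9, 133.8 and 134.1 each, at separate summits. The most variable were Smpdl3b, a phosphodiesterase gene, at 87.3, 67.8 and 144.4, and Ipo11, an importin gene, at 72.7, 143.3 and 87.1. Bmper, a BMP-binding protein gene, had 97.1, 150.3 and 75.6, and Mpp5, a cell polarity gene, 70.6, 99.03 and 144.4. Snrnp35 had 114.6, 72.1 and 145.6, and Zfp703 161.4, 96.4 and 94.0. No library was the high or low one throughout these 6.

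The libraries departed from each other in different places. Without replicate 1 the variation beyond counting was 13.1%, against 16.4% without replicate 2 and 22.9% without replicate 3. The median log2 difference of a library from the mean of the others, at summits 100 to 1000 bp upstream of starts, was 0.10 for replicate 1, -0.07 for replicate 2 and -0.0012 for replicate 3. In the widest 5% of regions it was -0.05, 0.06 and 0.02, and on contigs -0.51, 0.16 and 0.39. On X, replicate 2 departed most, by 0.07, and in regions of 1 summit replicate 3, by 0.08. The rank correlations of gene levels set no library apart, but those of other measures did. For single summits, region sums and gene sums, replicates 2 and 3 agreed best (0.89, 0.95 and 0.98), and pairs with replicate 1 were lower. Among pan-neuronal genes, replicate 1 was the lowest library for 16 of 20, against 35.9% of all coding genes, and for 11 of 18 excitatory neuron and 5 of 8 precursor genes. Among microglial genes it was the highest library for 4 of 8, against 34.1% of all coding genes. Replicate 1 was also lowest for 7 of 11 striatal and 7 of 12 cerebellar genes, and highest for 10 of 20 Hox genes. For 13 oligodendrocyte genes it was lowest for 5 and highest for 5, and for 13 vascular genes lowest for 4 and highest for 4. These lists were compared after the values were seen. Replicate 1 also had the most reads, and the part of depth or of cell composition in these differences was not tested.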

How the data were processed

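The 3 H3K4me3 ChIP-seq libraries of unstressed control mice were analysed. Tools named in the submitters' processing notes are Bowtie2, MACS2, Trimmomatic and DESeq2, and the builds there are GRCm38.p5 and mm10. Versions, settings, the libraries behind the region calls and the treatment of reads with several matches: not given in the sources used here. As deposited by the authors, the values are a normalised signal per summit, in which whole reads times a factor per library were recovered for 100% of values (tolerance 0.001 reads). A score per summit, also deposited by the authors with no stated scale, was not used. Gene positions and start windows came from RefSeq (GRCm38.p6), and 9752 of 11382 strongest summits of genes with strand lay within 1 kb of a start. With 1 group there is no test, and 3 libraries could not give an exact sign-flip p below 0.25. Values are means ± SD over libraries, and counting intervals cover counting error only. Variation beyond counting over all summits used edgeR 4.0.16 on the recovered reads, checked on simulated counts. Its values by level class, and the rest, used Python 3.11.15 with pandas 2.3.3. The members, lists and rules were chosen with earlier results of these data known. Of the listed symbols all but Ahsp matched RefSeq. Named genes are the 8 highest, the 8 lowest with reads in every library, the 8 widest and 8 largest-sum regions, the 6 most and 6 least variable above the median, the highest, lowest and median member of each list, and the 3 highest distant summits; others were chosen after their values were seen, and a few that the rule names are not reported here. Alternatives were other scalings, filters, distances, sums and leaving out each library.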

Additional observations from a re-analysis of the deposited data

How the results depend on the processing

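No paired analysis was possible because the 3 libraries form 1 group and no test was run. The median gene level of 98.3 was 96.9 within 1 kb of gene ends, 100.1 within 5 kb or at starts, 458 for sums, 113.2 for reads scaled to the mean total and 113.2 with TMM factors, and 98.5 to 99.2 without each library. The share of coding genes with a summit was 62.4% at 1 kb, 69.1% at 5 kb, 69.7% over whole genes and 64.2% at starts, the last 2 added after seeing the data. Mean rank agreement of genes (0.84) was 0.97 for sums, 0.86 for summits and 0.93 for region sums, and 0.83 to 0.84 with each library left out. The share of the top 5% found in all libraries (27.0%) was 19.6% at 1%, 33.2% at 10% and 71.8% for sums. Variation beyond counting ran from 13.1 to 22.9% without each library, replicate 1 giving the lowest value. The log2 difference of wide to other regions (1.52) was 1.62 for the widest 10% and 0.95 for the mean over summits. The CpG difference (0.61) was 1.25 between the upper and lower 25% of windows and 0.69 by observed over expected CpG. The X difference (-1.04) was -0.99 over all genes and -1.07 at starts. No direction turned. The list medians lay under that of all coding genes for 25 of 28 lists, and for 24 to 27 under the alternatives. Housekeeping genes changed side within 1 kb of gene ends (93.5 against 96.9), at starts (93.8 against 100.1) and without replicate 3 (94.9 against 99.2). Erythroid genes, 2 in number, changed side with sums and every other distance, germ cell genes at 5 kb, and synaptic vesicle and immediate early genes with sums. The weakest genes rest on 1 to 22 reads per library, which limits any order among them.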
